A study of Mus musculus with 6 samples.

Results

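The genes described here are the long non-coding RNA genes of brown fat that were read often enough to be compared between cold and control mice, among them the host genes of small nucleolar RNAs (snoRNAs). They were chosen by annotation and by read number: GENCODE M21 type lincRNA, antisense, bidirectional promoter lncRNA, processed transcript or sense intronic, with at least 60 reads summed over all libraries. There were 211 such genes, of 3278 genes of these 5 types with a read and of 21730 genes of any type with a read. They comprised 73 lincRNAs, 67 antisense genes, 15 bidirectional promoter lncRNAs, 52 processed transcripts and 4 sense intronic genes. The read sum that chose them took no account of the groups, and all 211 were tested, together with the other genes that passed the same minimum (8582 genes in all). Just inside the limit lay 21 genes with 60 to 65 reads, and just outside it 6 genes of the same types with 55 to 59 reads.

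The libraries came from interscapular brown adipose tissue, fat that burns fuel for heat and lies between the shoulder blades, of male wild-type C57BL/6N mice aged 20 weeks. The 3 cold mice (numbers 4, 11 and 15 in the labels) spent 24 h alone in a cage at 4 °C, and the 3 control mice (numbers 2, 9 and 14) were kept at 22 to 24 °C. The labels do not say whether the control mice were housed alone, so effects of cold and of housing alone cannot be told apart. Poly(A) RNA was sequenced by Oxford Nanopore direct cDNA sequencing, which reads long cDNA without PCR, and the library of each mouse was run on 2 flow cells whose reads were summed. The RNA was selected by its poly(A) tail, so the snoRNAs themselves, which lack one, were not measured. What was counted is tailed RNA of their host genes, over all annotated transcripts, some with an exon that overlaps a snoRNA. How fully other RNAs or transcript forms without an ordinary poly(A) tail were captured was not tested.

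Long non-coding RNAs are transcribed and mostly spliced and polyadenylated like mRNAs, but carry no long reading frame. Some, such as Malat1 and Neat1, stay in the nucleus, where Neat1 is the scaffold of paraspeckles. Others start beside or across from a coding gene, from the same stretch of promoter or on the opposite strand. SnoRNA hosts are a distinct kind: the snoRNA is cut out of an intron, bound by a core of snoRNP proteins and guides the chemical modification of ribosomal RNA (box C/D snoRNAs guide 2′-O-methylation, box H/ACA snoRNAs guide pseudouridylation), while the remaining spliced exons are in many hosts degraded by nonsense-mediated decay. In brown fat, non-coding RNAs such as Lncbate1 and Ctcflos have been studied for roles in the thermogenic programme.

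The libraries held 2082203, 1982292 and 1657985 reads in the cold mice, against 1829442, 1989224 and 2238056 reads in the control mice. Values are given as CPM, read counts scaled to a common effective library size, with mouse numbers in ascending order, and adjusted p-values are from edgeR's quasi-likelihood test over all 8582 genes. The tissue carried its defining marker, Ucp1, the uncoupling protein of brown fat, at 13619 ± 191 CPM in cold mice and 10546 ± 852 CPM in control mice (SD, n = 3 each). Brown adipocyte markers, Ucp1 among them, summed to 22296 to 23137 CPM in cold mice and 18329 to 20456 CPM in control mice. Of the 11 tested, 4 were called higher and 2 lower (median log2 fold change 0.04). The labels' tissue fields name interscapular brown adipose tissue for every library, while their extraction text names eWAT, another fat, at the homogenisation step. Skeletal muscle RNA differed widely between libraries: 15 of 15 muscle markers were read, and their summed level was 250, 1311 and 3360 CPM in cold mice 4, 11 and 15, against 86.1, 368 and 598 CPM in control mice 2, 9 and 14. White adipocyte markers summed to 306 to 336 CPM in cold mice and 109 to 171 CPM in control mice, with 3 of 5 tested markers called higher and Wt1 at 0 reads in every library, and macrophage markers summed to 97.2 to 130 CPM in cold mice and 68.0 to 98.1 CPM in control mice. Fibroblast and preadipocyte markers summed to 218 to 282 CPM in cold mice and 262 to 312 CPM in control mice, with 3 of 6 tested called lower. Pericyte and smooth muscle markers summed to 172 to 191 CPM in cold mice and 220 to 246 CPM in control mice (1 of 6 called lower), endothelial markers to 305 to 311 CPM in cold mice and 268 to 273 CPM in control mice (of 7 tested, 1 called higher and 1 lower), and lymphocyte markers, none tested, to 1.73 to 2.86 CPM in cold mice and 4.59 to 6.44 CPM in control mice. The mitochondrial share of reads was 28.3% ± 0.67 in cold mice and 31.0% ± 1.4 in control mice (SD, n = 3 each, exact two-sided permutation p = 0.1, the smallest possible). Except for a muscle covariate, the part of these cell types and of the mitochondrial share in the results was not tested.

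By edgeR, more of these RNAs were called lower than higher in the cold, while with DESeq2 (13 higher, 15 lower) and on flow cell 2 alone (7 higher, 9 lower) the counts were closer. At an adjusted p under 0.05, 18 of the 211 were higher in cold mice (8.53%, against 9.65% of all tested genes) and 36 were lower (17.1%, against 10.1% of all tested genes). The 54 called genes are 25.6% of the 211, against 19.7% of all tested genes and 13.6% of the 6193 other genes with 66 to 625 reads. That range is the 10th to 90th percentile of the 211. Some of the 211 lie outside it, and reads were not matched within it. The median log2 fold change of the 211 was -0.22, against -0.003 for all tested genes. In 83 of the 211 (39.3%) the cold and control mice did not overlap, against 35% of all tested genes. All 54 called genes had the same sign of change on both flow cells, as did 95 of the 157 genes not called. Both flow cells ran the same libraries and the calls were made on their sum. The agreement of called genes was thus nearly fixed in advance and is no replication between mice. In bulk tissue, fewer cells of a type and less RNA per cell cannot be told apart, and this holds for every change given here.

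The count of lowered genes depended on single mice. It was 23 without cold mouse 15, 21 without control mouse 2 and 19 without control mouse 9, while the count of raised genes stayed between 14 and 16 when any mouse was left out. Part of this follows from the read minimum: of the 36 lowered genes, 3, 7 and 9 had under 60 reads in the mice that remained in these 3 fits and were not tested, and 11, 11 and 8 were tested and lost the call. DESeq2 called 15 lowered genes in place of 36, and edgeR called 20 with the skeletal muscle marker score as a covariate.

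**Figure D1:**
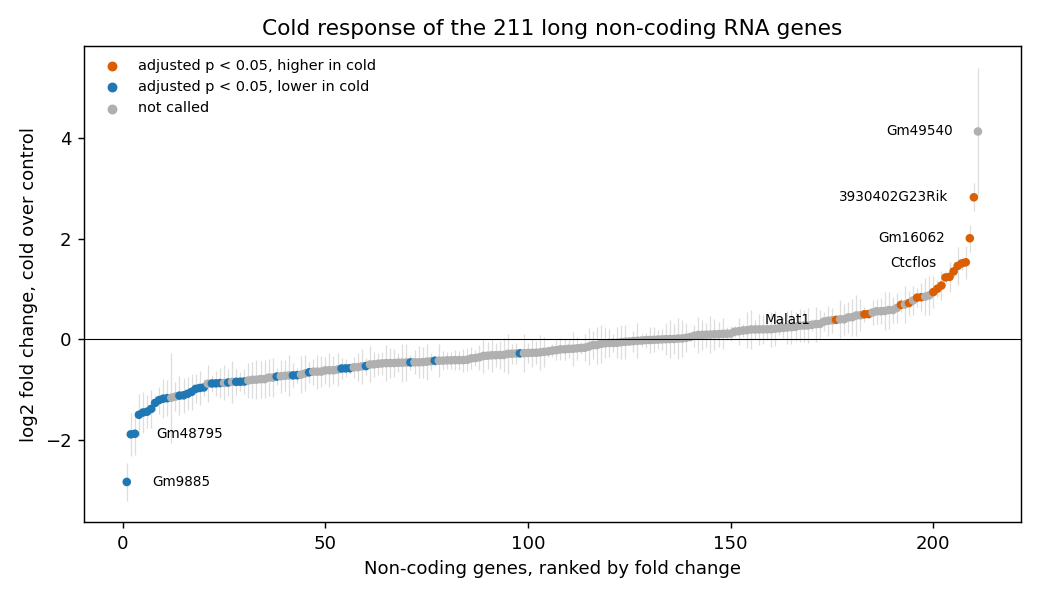
Log2 fold change, cold over control, of the 211 long non-coding RNA genes, ranked from the lowest to the highest (bars are the SE of the fit, n = 3 mice per group). The 18 genes called higher are orange, the 36 called lower are blue and the 157 not called are grey; Gm49540, the highest point, was not called.

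The calls were counted for each annotated type. Among the 15 bidirectional promoter lncRNAs 6 were lower and 0 higher (40% called, against 19.7% of all tested genes, median log2 fold change -0.55). Among the 52 processed transcripts 10 were lower and 1 higher (21.2%, median -0.39). The 67 antisense genes split into 10 lower and 7 higher (25.4%), and the 73 lincRNAs into 10 lower and 10 higher (27.4%). DESeq2 called 2 of the 15 bidirectional promoter lncRNAs, 4 of the 52 processed transcripts, 9 of the 67 antisense genes and 13 of the 73 lincRNAs. Of the 4 sense intronic genes 0 were called by edgeR or DESeq2, with 1 at an unadjusted p under 0.05 by edgeR. At more than a 2-fold change, 10 of the 211 genes were called higher (4.74%, against 2.33% of all tested genes) and 15 lower (7.11%, against 2.12%).

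Annotation limits what a read of these genes means. Some of the 211, among them Ndufb1-ps, Tmem134, Cct6a, Ptpmt1, Ifi30 and Trmt61b, are named for proteins. They count as non-coding here by annotated type only, and whether their transcripts are translated was not tested. Exonic bases were shared with another gene by 119 of the 211, and for these the strand setting of the authors' counting, which is not given in the sources used here, decides which gene a read was assigned to. Among the 92 genes that share no exonic base, 7 were higher and 17 lower in the cold (26.1%), close to the share among the 119 (25.2%). A stretch of at least 200 nt at 95% identity or more was shared with another read gene by 66 of the 211, and in 23 of these the copy lies elsewhere in the genome. AC102496.1, Gm26809 and Gm48795 are the 3 called genes among those 23, and their counts are uncertain for that reason.

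Malat1, a nuclear RNA of nuclear speckles and the most-read gene of the group, was higher in the cold. It held 32.5% of the 131926 reads on the 211 genes. Its level was 4533, 3925 and 3892 CPM in cold mice, against 3119, 3016 and 3307 CPM in control mice. Every cold mouse was above every control mouse, with a log2 fold change of 0.39 ± 0.07 (SE, adjusted p = 7.64e-05) that was called under every alternative run, between 0.32 and 0.45. The share of all reads that fell on the 211 genes was 1.19% ± 0.015 in cold mice and 1.05% ± 0.025 in control mice (SD, n = 3 each, exact two-sided permutation p = 0.1, the smallest that 3 against 3 mice allow). Without Malat1 the share was 0.770% ± 0.019 in cold mice and 0.743% ± 0.024 in control mice, and the groups overlapped (exact two-sided permutation p = 0.2).

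The Malat1 promoter, from RefSeq on GRCm38.p6 (chr19:5802623-5802922, minus strand, 250 bases before the annotated start and 50 after), is printed because Malat1 carries the largest number of reads and its window holds the core letters of the cAMP response element, TGACG, 3 times on the 2 strands. These matches are in capitals, and the last of them spans the annotated start.
Malat1 promoter: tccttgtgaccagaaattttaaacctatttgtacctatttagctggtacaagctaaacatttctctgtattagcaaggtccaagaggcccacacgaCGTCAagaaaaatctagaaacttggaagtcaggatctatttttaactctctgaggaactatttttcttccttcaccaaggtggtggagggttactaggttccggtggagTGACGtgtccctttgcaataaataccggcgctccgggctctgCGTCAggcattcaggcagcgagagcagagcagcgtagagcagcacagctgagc

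Neat1, the neighbour of Malat1 on chromosome 19 and the scaffold RNA of paraspeckles, did not pass the test. Only Neat1 RNA retained by the poly(A) selection was counted. It had 561, 538 and 562 CPM in cold mice, against 475, 578 and 553 CPM in control mice. The groups overlapped, and the log2 fold change was 0.05 ± 0.08 (SE, adjusted p = 0.736). Of 14 paraspeckle protein genes, all tested, 1 was called higher and 1 lower (14.3%, against 19.7% of all tested genes; median log2 fold change 0.10, against -0.003 for all tested genes). Sfpq, which binds Neat1, rose to 36.8 ± 2.55 CPM in cold mice, against 27.1 ± 2.56 CPM in control mice (adjusted p = 0.0372). Ewsr1, an RNA-binding protein also found in paraspeckles, fell to 42.9 ± 5.83 CPM in cold mice, against 56.0 ± 3.42 CPM in control mice (adjusted p = 0.0369). DESeq2 called neither.

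The 10 genes with the most reads held 70.8% of the reads on the group. Gm17494, second by reads, had 1328, 1337 and 1243 CPM in cold mice, against 1346, 1356 and 1322 CPM in control mice. Its groups overlapped (adjusted p = 0.716), and its transcript shares 735 nt at 99.6% identity with Ppia, the cyclophilin A gene, which itself had 13712 reads, so its own level is uncertain. Ndufb1-ps, annotated as a bidirectional promoter lncRNA beside Cpsf2, had 785, 736 and 735 CPM in cold mice, against 904, 907 and 923 CPM in control mice. No cold mouse reached the lowest control mouse, and the change was small, with a log2 fold change of -0.28 ± 0.07 (SE, adjusted p = 0.00336; 0.0536 with the muscle covariate).

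Gm26809 and AC160336.1, lincRNAs without a known role, were higher in the cold. Gm26809 had 561, 782 and 686 CPM in cold mice, against 364, 431 and 464 CPM in control mice (log2 fold change 0.69 ± 0.13 SE, adjusted p = 0.00719). The groups did not overlap, but the call was lost without cold mouse 15 (adjusted p = 0.108), without control mouse 9 (0.0681) and on flow cell 2 alone (0.101). Of its transcript, 512 nt are 97.1% identical to Gm12840 elsewhere in the genome. AC160336.1, annotated as a single exon of 93147 nt on chromosome 14, had 497, 626 and 561 CPM in cold mice, against 382, 398 and 409 CPM in control mice (log2 fold change 0.50 ± 0.08 SE, adjusted p = 3.71e-05). All cold mice were above all control mice, and the call held under every alternative run.

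Tmem134 and 1700020I14Rik went the other way. Tmem134, annotated as a processed transcript, had 96.7, 96.3 and 84.3 CPM in cold mice, against 150, 144 and 120 CPM in control mice (log2 fold change -0.57 ± 0.11 SE, adjusted p = 0.000254). 1700020I14Rik had 95.3, 83.0 and 96.4 CPM in cold mice, against 126, 122 and 120 CPM in control mice (log2 fold change -0.42 ± 0.10 SE, adjusted p = 0.00362). In both genes the groups did not overlap, but the call of 1700020I14Rik was lost on flow cell 2 alone (adjusted p = 0.185). Gm26631, the remaining gene with many reads, had 109 ± 15.7 CPM in cold mice and 123 ± 15.9 CPM in control mice (adjusted p = 0.344).

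Bc1, a short RNA of rodents that RNA polymerase III transcribes and that is best known from neurons, lay near the threshold. It had 183, 111 and 136 CPM in cold mice, against 363, 351 and 234 CPM in control mice. The groups did not overlap and the log2 fold change was -1.14 ± 0.28 (SE), yet the adjusted p was 0.0615. Bc1 was called by DESeq2 (adjusted p = 0.00122), without cold mouse 4 (0.00981), without control mouse 14 (0.00219), on flow cell 1 alone (0.0437) and with the muscle covariate (0.0128), and the adjusted p ranged from 0.00122 to 0.308 over all alternatives. Its sequence (GENCODE M21 transcript, GRCm38, chr7:144914470-144914637, plus strand) is printed because it is only 168 nt long, shorter than any other gene of the group, and carries an internal run of 23 A.
Bc1: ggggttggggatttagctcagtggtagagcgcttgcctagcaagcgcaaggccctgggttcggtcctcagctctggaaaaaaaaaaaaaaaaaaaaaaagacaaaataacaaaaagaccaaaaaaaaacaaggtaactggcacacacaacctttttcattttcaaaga

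The largest increase belonged to 3930402G23Rik, a lincRNA with 3 exons at chr8:10924427-10928696 (GRCm38, minus strand). It had 24.8, 32.4 and 30.01 CPM in cold mice, against 4.02, 2.01 and 5.98 CPM in control mice, from 52, 66 and 52 reads in cold mice and 7, 4 and 13 reads in control mice. The lowest cold mouse was several times above the highest control mouse, and the rise was 7.06-fold (log2 fold change 2.82 ± 0.28 SE, adjusted p = 1.34e-08). The nearest coding gene, Irs2, an adaptor of the insulin receptor, lies 56.0 kb away on the same strand and was also higher, at 28.1, 13.3 and 11.5 CPM in cold mice, against 4.02, 2.52 and 7.36 CPM in control mice (adjusted p = 0.0129).

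Gm16062, an antisense gene at chr11:59810080-59818491 (GRCm38, plus strand), rose 4.02-fold. It had 18.6, 25.1 and 24.2 CPM in cold mice, against 2.87, 6.54 and 6.90 CPM in control mice (log2 fold change 2.01 ± 0.27 SE, adjusted p = 2.68e-06). All cold mice exceeded all control mice. It lies 0.064 kb from Flcn, the gene of folliculin, a regulator of mTORC1 signalling at the lysosome, on the opposite strand. Flcn was called higher too, at 71.3 ± 4.76 CPM in cold mice and 51.4 ± 7.13 CPM in control mice (SD, n = 3 each, adjusted p = 0.00688). With Cops3, a subunit of the COP9 signalosome, Gm16062 shares 279 exonic nt on the other strand, and Cops3 did not pass the test, with 54.8 ± 6.42 CPM in cold mice and 49.6 ± 7.55 CPM in control mice (adjusted p = 0.549).

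The RefSeq promoter window of Gm16062 (GRCm38.p6, chr11:59809830-59810129, plus strand) is shown because the full palindromic cAMP response element TGACGTCA, in capitals, begins at the second base of the annotated transcript. The same 8 letters, searched on both strands, occur in 1.79% of the 32851 RefSeq promoter windows.
Gm16062 promoter: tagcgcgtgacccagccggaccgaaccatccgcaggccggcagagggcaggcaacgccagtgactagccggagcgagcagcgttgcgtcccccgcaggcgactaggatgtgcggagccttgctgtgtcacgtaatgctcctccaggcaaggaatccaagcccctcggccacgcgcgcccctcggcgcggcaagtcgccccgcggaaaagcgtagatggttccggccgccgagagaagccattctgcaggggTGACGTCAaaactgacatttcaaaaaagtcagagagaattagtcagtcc

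Ctcflos, an antisense RNA at chr2:173110818-173133204 (GRCm38, plus strand) that overlaps the gene Ctcfl and has been studied in thermogenic fat cells, rose 2.84-fold. It had 112, 109 and 101 CPM in cold mice, against 29.8, 41.8 and 40.9 CPM in control mice (log2 fold change 1.51 ± 0.13 SE, adjusted p = 5.97e-10). The lowest cold mouse was well above the highest control mouse, and the call held under every alternative run. Pck1, the phosphoenolpyruvate carboxykinase gene 19.8 kb away on the same strand, changed in the opposite direction, at 830 ± 68.5 CPM in cold mice and 1450 ± 272 CPM in control mice (SD, n = 3 each, adjusted p = 0.0106).

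Further lincRNAs rose at higher levels. Gm48942, on chromosome 14 with no coding gene within 1366 kb, had 126, 138 and 147 CPM in cold mice, against 67.1, 62.4 and 46.4 CPM in control mice (log2 fold change 1.23 ± 0.12 SE, adjusted p = 1.86e-08). AC153155.2, on chromosome 18, had 131, 123 and 125 CPM in cold mice, against 55.6, 40.3 and 52.9 CPM in control mice (log2 fold change 1.35 ± 0.12 SE, adjusted p = 1.62e-09). In both, the groups stood well apart. AC153155.2 lies 7.05 kb from Arhgef37 on the same strand, which had 9.05, 13.3 and 9.23 CPM in cold mice, against 0, 2.01 and 0.460 CPM in control mice (adjusted p = 1.03e-05). On its other side, at 69.8 kb, is Ppargc1b, a coactivator of mitochondrial genes, which did not pass the test, with 64.0 ± 11.4 CPM in cold mice and 47.7 ± 11.3 CPM in control mice (adjusted p = 0.0828). Gm10032 had 33.8, 38.3 and 40.4 CPM in cold mice, against 18.9, 15.6 and 21.1 CPM in control mice (log2 fold change 1.00 ± 0.17 SE, adjusted p = 6.62e-05), and its groups did not overlap. Its neighbours Adra1a, an alpha-1 adrenergic receptor gene, and Dpysl2 did not pass the test (adjusted p = 0.274 and 0.157).

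The remaining large increases had fewer reads. Map2k3os, antisense to and 166 nt from the start of Map2k3, a kinase upstream of p38, had 13.8, 12.3 and 12.7 CPM in cold mice, against 7.46, 5.03 and 4.14 CPM in control mice (log2 fold change 1.24 ± 0.29 SE, adjusted p = 0.00271). AC122442.1 had 11.9, 10.8 and 9.81 CPM in cold mice, against 4.02, 4.03 and 3.22 CPM in control mice (log2 fold change 1.53 ± 0.33 SE, adjusted p = 0.000987). It lies 1.303 kb from Cnnm2, a gene of magnesium transport on the same strand, which was called higher at 32.4 ± 5.56 CPM in cold mice and 22.1 ± 3.87 CPM in control mice (adjusted p = 0.0235). AC122442.1 also overlaps Nt5c2 on the other strand, with 123 shared exonic nt. Nt5c2 did not pass the test, at 15.0 ± 3.86 CPM in cold mice and 19.4 ± 1.19 CPM in control mice (adjusted p = 0.283). Gm12781, which overlaps Kctd15 on the other strand, had 7.99 ± 0.74 CPM in cold mice and 2.83 ± 0.74 CPM in control mice (adjusted p = 0.00568, and 0.080 by DESeq2). Without control mouse 2 it stayed called (0.0256). With any other mouse left out it had under 60 reads and was not tested. B430219N15Rik, which overlaps Ginm1 on the other strand, had 12.5 ± 0.22 CPM in cold mice and 5.80 ± 2.04 CPM in control mice (adjusted p = 0.00969). Its call was lost without control mouse 2 (adjusted p = 0.0544), by DESeq2 (0.0992), in 4 libraries without control mouse 2 and cold mouse 15 (0.0967) and with the muscle covariate (0.0789). In these 4 non-coding genes every cold mouse was above every control mouse. Of their coding partners, Ginm1 was called higher (adjusted p = 0.0369), while Map2k3 and Kctd15, like Nt5c2, did not pass the test (0.168 and 0.603).

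**Figure D2:**
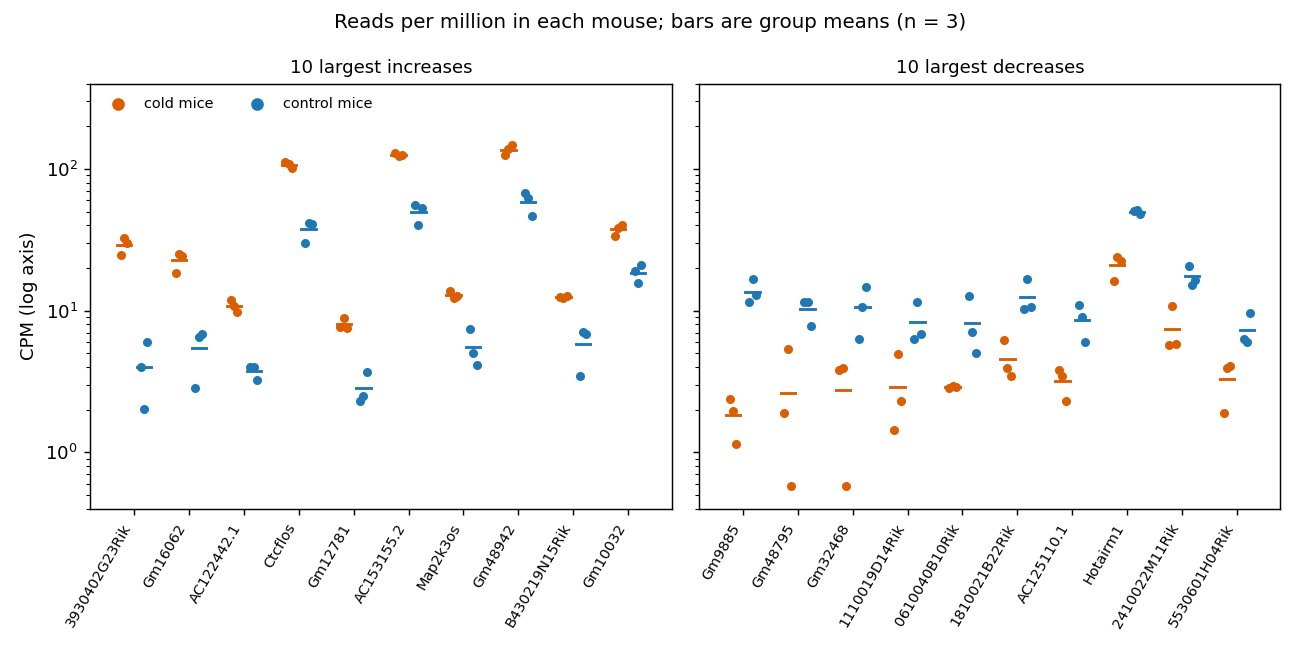
CPM in each mouse (log axis) of the 10 called genes with the largest increase and the 10 with the largest decrease among those whose groups do not overlap, cold mice in orange left of control mice in blue, bars at the group mean (n = 3 each). 3930402G23Rik at 29.1 CPM in cold mice against 4.00 CPM in control mice and Gm9885 at 1.83 CPM in cold mice against 13.7 CPM in control mice stand furthest apart.

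Gm9885, an antisense gene at chr7:78578830-78581038 (GRCm38, plus strand) inside Ntrk3, showed the largest decrease. It had 2.38, 1.97 and 1.15 CPM in cold mice, against 11.5, 16.6 and 12.9 CPM in control mice, from 5, 4 and 2 reads in cold mice and 20, 33 and 28 reads in control mice. The groups were far apart, with a 7.11-fold lower level in cold mice (log2 fold change -2.83 ± 0.37 SE, adjusted p = 1.61e-06). Without control mouse 9, Gm9885 had under 60 reads and was not tested. It shares no exonic base with Ntrk3, which encodes a receptor of neurotrophin-3 and had 9.53, 3.44 and 1.73 CPM in cold mice, against 68.3, 96.7 and 91.5 CPM in control mice (adjusted p = 0.000331).

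Hotairm1, an antisense RNA on chromosome 6 that is known in human from myeloid cells, fell 2.40-fold. It had 16.2, 24.1 and 22.5 CPM in cold mice, against 50.5, 51.4 and 48.3 CPM in control mice (log2 fold change -1.26 ± 0.16 SE, adjusted p = 8.61e-07). The control mice lay close together, and the highest cold mouse was under the lowest of them.

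Gm48795 and Gm32468 fell 3.69-fold and 3.66-fold. Gm48795 had 1.91, 5.40 and 0.577 CPM in cold mice, against 11.5, 11.6 and 7.81 CPM in control mice (log2 fold change -1.88 ± 0.43 SE, adjusted p = 0.00267; -2.91 without cold mouse 11). This gene is uncertain: 1153 nt of its transcript are 98.7% identical to Me1, the malic enzyme gene that supplies NADPH for fatty acid synthesis. Me1, with 6236 reads, itself had 312, 281 and 192 CPM in cold mice, against 622, 954 and 781 CPM in control mice (log2 fold change -1.58 ± 0.27 SE, adjusted p = 0.0222). Gm32468 had 3.81, 3.93 and 0.577 CPM in cold mice, against 6.31, 10.6 and 14.7 CPM in control mice (adjusted p = 0.00277), without overlap between the groups. With under 60 reads left, Gm48795 was not tested when any control mouse was left out, nor Gm32468 without control mouse 14.

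Among the other large decreases, 5 start beside a coding gene on the opposite strand. 1110019D14Rik, 8 nt from the start of 2610001J05Rik, had 2.88 ± 1.81 CPM in cold mice and 8.26 ± 2.89 CPM in control mice (adjusted p = 0.0108), a call that was lost without cold mouse 4 (0.0878) and by DESeq2 (0.0926). 0610040B10Rik, 9 nt from the start of Zdhhc4, a palmitoyltransferase gene, had 2.90 ± 0.046 CPM in cold mice and 8.24 ± 3.92 CPM in control mice (adjusted p = 0.0113; 0.0941 by DESeq2 and 0.168 with the muscle covariate), and without any 1 mouse it had under 60 reads and was not tested. Zdhhc4 was called lower as well, at 19.7 ± 2.12 CPM in cold mice and 30.6 ± 4.89 CPM in control mice. For the other three, AC125110.1 beside Rbm27, 2410022M11Rik beside Zmym5 and 5530601H04Rik beside Pbdc1, log2 fold changes were -1.38, -1.20 and -1.18 (adjusted p = 0.00896, 0.00156 and 0.0337), while the coding neighbour did not pass the test. The call of AC125110.1 was lost by DESeq2 (0.0926) and with the muscle covariate (0.126), that of 2410022M11Rik in the 4 libraries (0.0503) and that of 5530601H04Rik by DESeq2 (0.231). With any mouse left out, 5530601H04Rik had under 60 reads and was not tested. The same held for AC125110.1 with any control mouse left out, and for 1110019D14Rik with cold mouse 11 or any control mouse left out. 1810021B22Rik, which overlaps Trabd, had 4.53 ± 1.46 CPM in cold mice and 12.5 ± 3.56 CPM in control mice (adjusted p = 0.0017). Neither Trabd nor 2610001J05Rik passed the test (adjusted p = 0.845 and 0.781).

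Among the snoRNA hosts, 19 genes, 0 were called higher and 4 lower (21.1%, against 19.7% of all tested genes), and 6 had an unadjusted p under 0.05. Their median log2 fold change was -0.31. Summed over the 19 hosts, their level was 328, 315 and 315 CPM in cold mice, against 388, 344 and 340 CPM in control mice, so that every cold mouse lay under every control mouse. As an unscaled share of all reads the groups overlapped, with 0.0331% in cold mouse 4 and 0.0330% in control mouse 14. DESeq2 called 0 of the 19, and edgeR called 1 without cold mouse 11, 1 without cold mouse 15, 0 without control mouse 2 and 1 without control mouse 9.

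In the 19 hosts the annotation places 48 small RNA entries on the same strand. Snord80 in Gas5 and Snora16a in Snhg12 are each entered more than once, at nested positions. Of the 45 entries whose sequence was read, 29 hold the letters of box C (TGATGA) in their first 25 nt and of box D (CTGA) in their last 20 nt, 10 hold ACA in their last 8 nt, and 6 hold neither pattern. The small RNAs of the 4 lowered hosts are printed, from the GENCODE M21 transcripts on GRCm38, because they are what these host transcripts are processed into. Capitals mark boxes C and D, or the ACA of the scaRNA (a snoRNA-like RNA of Cajal bodies) Gm26083. They lie at chr1:9942463-9942549, minus strand (Snord87 in Snhg6), chr15:32241853-32241923, minus strand (Snord123 in Snhg18), and on the plus strand of chromosome 11 at chr11:62603450-62603521 (Snord49a), chr11:62603079-62603150 (Snord49b) and chr11:62604515-62604586 (Snord65), all in 2410006H16Rik, and chr11:117077243-117077435 (Gm26083 in Snhg20).
Snord87: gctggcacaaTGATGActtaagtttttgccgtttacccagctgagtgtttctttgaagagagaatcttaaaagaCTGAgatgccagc
Snord123: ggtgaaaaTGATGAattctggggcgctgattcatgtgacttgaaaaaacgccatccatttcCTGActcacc
Snord49a: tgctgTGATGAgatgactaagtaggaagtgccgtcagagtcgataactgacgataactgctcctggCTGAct
Snord49b: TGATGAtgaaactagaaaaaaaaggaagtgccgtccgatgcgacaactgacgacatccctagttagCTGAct
Snord65: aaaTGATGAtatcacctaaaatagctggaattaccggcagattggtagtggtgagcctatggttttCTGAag
Gm26083: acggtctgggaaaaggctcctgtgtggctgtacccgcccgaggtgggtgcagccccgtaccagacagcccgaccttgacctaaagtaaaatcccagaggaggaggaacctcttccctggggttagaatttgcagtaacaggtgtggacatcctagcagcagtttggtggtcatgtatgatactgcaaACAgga

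Snhg6 was the lowered host with the most reads. It had 31.4, 29.5 and 27.7 CPM in cold mice, against 41.9, 41.3 and 39.1 CPM in control mice (log2 fold change -0.46 ± 0.14 SE, adjusted p = 0.0246). The 2 groups were tight and apart, but the call was lost without cold mouse 11 (adjusted p = 0.064), cold mouse 15 (0.0842), control mouse 2 (0.0575) or control mouse 9 (0.0544). Snhg20 had 8.58, 7.86 and 9.81 CPM in cold mice, against 20.1, 14.1 and 14.3 CPM in control mice (log2 fold change -0.87 ± 0.25 SE, adjusted p = 0.0125), and the call was lost without cold mouse 11 (0.0539) or control mouse 2 (0.0791). Every cold mouse was under every control mouse.

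Snhg18 had 4.29, 4.42 and 2.89 CPM in cold mice, against 12.0, 8.05 and 6.90 CPM in control mice (log2 fold change -1.17 ± 0.36 SE, adjusted p = 0.0199), a call lost without cold mouse 15 (0.0737) and not tested without control mouse 2 or control mouse 9, where under 60 reads remained. 2410006H16Rik had 7.62, 3.93 and 2.89 CPM in cold mice, against 9.75, 10.6 and 8.73 CPM in control mice (log2 fold change -0.96 ± 0.34 SE, adjusted p = 0.0456). Here too the groups did not overlap, but leaving out any mouse other than cold mouse 4 ended the call: the adjusted p was 0.159 without cold mouse 11, 0.178 without cold mouse 15, 0.0914 without control mouse 2, 0.112 without control mouse 9 and 0.0617 without control mouse 14.

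Gas5 is the host of 10 annotated small RNA entries, Snord80 among them more than once, and a transcript that accumulates when growth stops. It had 55.3, 45.7 and 65.8 CPM in cold mice, against 53.9, 47.8 and 51.9 CPM in control mice. The groups overlapped, with a log2 fold change of 0.11 ± 0.13 (SE, adjusted p = 0.629). Snhg1, the host of 8, had 16.7, 19.2 and 11.5 CPM in cold mice, against 24.1, 19.1 and 19.3 CPM in control mice (adjusted p = 0.252). AI506816 had the largest positive value of the hosts, with 10.5, 12.3 and 13.9 CPM in cold mice, against 4.59, 8.05 and 8.27 CPM in control mice. Its groups did not overlap, and its adjusted p was 0.0565. Its transcript shares 463 nt at 98.1% identity with Apobec3 and 335 nt at 96.4% with Gm43305, both elsewhere in the genome. The level of AI506816 is uncertain for that reason. Its annotated snoRNA, Mir3096, holds neither the letters of boxes C and D nor the ACA. Cct6a, a gene named for a chaperonin subunit and annotated here as a processed transcript, had 84.1 ± 2.77 CPM in cold mice and 75.8 ± 6.62 CPM in control mice (adjusted p = 0.382).

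The other 11 hosts that were not called had group means of 5.26 to 22.9 CPM. In Snhg12, Zfas1 and Snhg8 the cold mice were all under the control mice, with log2 fold changes of -0.73, -0.31 and -0.28 (adjusted p = 0.125, 0.407 and 0.354). Snhg3, Dancr, 9330159M07Rik, AC121821.1 and Epb41l4aos had log2 fold changes of -0.27, -0.61, -0.64, -0.45 and -0.26, and Snhg5, 1110038B12Rik and Gm15832 of 0.11, 0.09 and 0.30, with overlapping groups in all 8. Snhg5 and 9330159M07Rik, 2 hosts on chromosome 9, hold a snoRNA with the same 72 nt, Snord50b and Gm26135, which is printed because it links 2 separate hosts (Snord50b at chr9:88521797-88521868 and Gm26135 at chr9:88857693-88857764, minus strand, GRCm38, boxes C and D in capitals).
Snord50b and Gm26135: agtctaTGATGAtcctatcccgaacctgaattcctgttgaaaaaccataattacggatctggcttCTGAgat

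**Figure D3:**
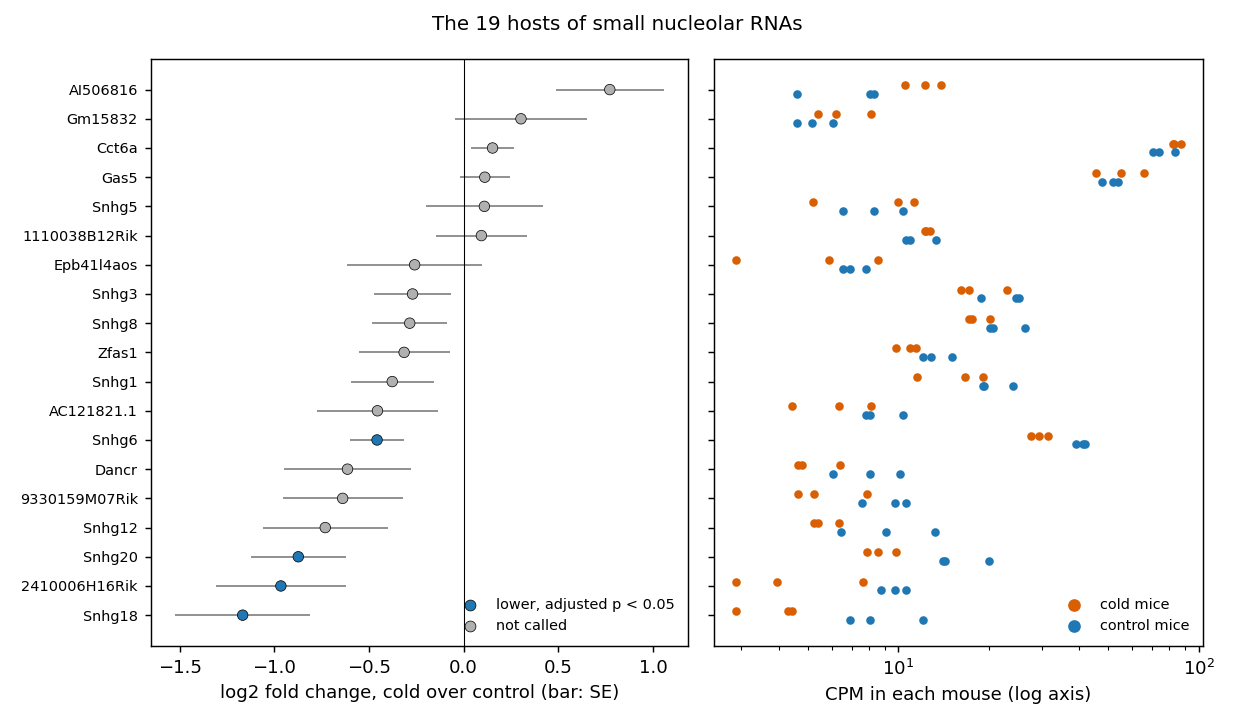
The 19 snoRNA hosts, ordered by fold change: log2 fold change, cold over control, with its SE at left, and CPM in each mouse on a log axis at right, cold mice (orange) above control mice (blue). The 4 called hosts (blue circles at left) are all lower in the cold, and 13 of the 19 hosts lie below 0.

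Few genes of snoRNA proteins and of nonsense-mediated decay were called. Of 15 tested genes of the snoRNP core and its assembly, 1 was higher and 1 lower (13.3%, against 19.7% of all tested genes, median log2 fold change 0.06). Nop10, a small protein of box H/ACA snoRNPs, fell to 131 ± 11.1 CPM in cold mice, against 207 ± 23.01 CPM in control mice (adjusted p = 1.59e-05). Ruvbl1, an ATPase that helps to assemble box C/D snoRNPs, rose to 14.0 ± 2.42 CPM in cold mice, against 8.07 ± 1.82 CPM in control mice (adjusted p = 0.0358). Of 17 tested genes of nonsense-mediated decay and the exon junction complex, 0 were called by edgeR or by DESeq2, and 1 had an unadjusted p under 0.05 by edgeR (median log2 fold change -0.01).

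MicroRNA genes lie inside 12 of the 211 genes, of which 0 were called higher and 2 lower (16.7%, against 19.7% of all tested genes, median log2 fold change -0.43). Mir22hg, the host of miR-22, had 26.2, 23.6 and 17.9 CPM in cold mice, against 40.2, 41.3 and 33.1 CPM in control mice. The groups did not overlap (log2 fold change -0.74 ± 0.17 SE, adjusted p = 0.00172; 0.0532 in 4 libraries without control mouse 2 and cold mouse 15, and 0.0603 with the muscle covariate). Tlcd2, on the same strand with 206 shared exonic nt, was called lower too, at 7.78 ± 2.20 CPM in cold mice and 20.5 ± 5.36 CPM in control mice (adjusted p = 0.000232). Snhg20, described among the snoRNA hosts, is the other. The mature microRNAs of these 2 hosts are printed from RefSeq (GRCm38.p6, plus strand of chromosome 11), with the seed, bases 2 to 8, in capitals. The 4 seeds all differ, and mature microRNAs were not measured here.
miR-22-5p: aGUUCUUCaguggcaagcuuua
miR-22-3p: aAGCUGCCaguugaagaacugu
miR-6516-5p: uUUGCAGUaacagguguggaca
miR-6516-3p: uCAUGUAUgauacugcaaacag

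The pre-miR-6516 arms lie within the scaRNA Gm26083 (miR-6516-5p at chr11:117077370-117077391 and miR-6516-3p at chr11:117077412-117077433, against chr11:117077243-117077435 for Gm26083). Of the other 10 genes with a microRNA inside, edgeR and DESeq2 called none, and Gm20633 and Dleu2 had an unadjusted p under 0.05 by edgeR (0.0433 and 0.0437). Dleu2, the host of miR-15a and miR-16-1, had 12.8 CPM in cold mice and 18.1 CPM in control mice (adjusted p = 0.146), and Mir99ahg, the host of miR-99a, let-7c-1 and miR-125b-2, had 5.10 CPM in cold mice and 7.14 CPM in control mice (adjusted p = 0.373).

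Of the well-known imprinted and X-linked RNAs that were read often enough, edgeR and DESeq2 called none, and Firre alone had an unadjusted p under 0.05 by edgeR (0.0253). Meg3, the maternally expressed RNA of the Dlk1 domain, had 20.97, 24.6 and 19.05 CPM in cold mice, against 21.2, 23.2 and 20.7 CPM in control mice (log2 fold change -0.0050 ± 0.19 SE). Kcnq1ot1, the imprinted antisense RNA of Kcnq1, had 21.02 ± 1.75 CPM in cold mice and 24.0 ± 1.96 CPM in control mice (adjusted p = 0.533), and Peg13 6.89 ± 3.68 CPM in cold mice and 8.38 ± 1.29 CPM in control mice (adjusted p = 0.599). Firre, an X-linked RNA that contacts several chromosomes, had 4.77, 7.86 and 5.77 CPM in cold mice, against 9.75, 12.1 and 8.73 CPM in control mice. Its groups did not overlap, and its adjusted p was 0.099. Ftx, of the X inactivation centre, and Tug1, the taurine-upregulated gene, had overlapping groups (adjusted p = 0.633 and 0.596). Below the minimum of 60 reads were H19 with 40 reads, Airn with 30, Snhg14 with 27, Pvt1 with 13 and Rian with 8, while Lncbate10 and Norad had 0 reads.

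Lncbate1, a brown fat lncRNA inside Zfhx3 on the other strand, was called although its groups overlapped; it falls outside the rule for named genes and was chosen after its values were seen. It had 50.03, 62.4 and 67.5 CPM in cold mice, against 52.8, 40.3 and 34.9 CPM in control mice (log2 fold change 0.50 ± 0.15 SE, adjusted p = 0.019). Control mouse 2 lay above cold mouse 4. The call was lost without cold mouse 11 (adjusted p = 0.0763), cold mouse 15 (0.0765), control mouse 9 (0.0649) or control mouse 14 (0.124). It was also lost by DESeq2 (adjusted p = 0.122), on flow cell 2 alone and with the muscle covariate. Zfhx3, a transcription factor gene, was called higher at 37.0 ± 5.63 CPM in cold mice and 27.0 ± 2.93 CPM in control mice (adjusted p = 0.0472).

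A coding gene that overlaps the non-coding gene or starts within 5 kb of it was annotated for 152 of the 211, on the opposite strand in 133, and 115 of these coding partners were tested. At most 1 partner was taken per non-coding gene: the overlapping coding gene that shares most exonic bases, or, where none overlaps, that with the nearest start. Gm16062 was so paired with Cops3, which it overlaps, and not with Flcn. Of the 54 called non-coding genes, 32 had a tested partner. In 6 the partner was called in the same direction, in 2 in the opposite direction, and in 24 the partner was not called. Among tested partners of non-coding genes that were not called, 13 were higher, 6 lower and 64 not called. Of all tested genes, 19.7% were called. The same-direction pairs were Gm9885 with Ntrk3, 0610040B10Rik with Zdhhc4, Mir22hg with Tlcd2, A530020G20Rik with Slc44a3, B430219N15Rik with Ginm1 and Lncbate1 with Zfhx3. Exonic bases are shared with Zdhhc4 (10 nt), Tlcd2 (206 nt), Slc44a3 (349 nt) and Ginm1 (157 nt), but not with Ntrk3 or Zfhx3. The call of A530020G20Rik was lost by DESeq2 (0.264) and at a minimum of 15 reads. With any mouse left out, A530020G20Rik had under 60 reads and was not tested. The opposite pairs were D330023K18Rik, lower while Gpr107 was higher, and E330011O21Rik, lower while Cxadr was higher. E330011O21Rik had 9.53, 7.37 and 8.66 CPM in cold mice, against 14.9, 18.1 and 12.9 CPM in control mice (adjusted p = 0.0179), and Cxadr, the gene of an adhesion protein and virus receptor, had 41.3 ± 2.60 CPM in cold mice and 26.9 ± 3.68 CPM in control mice (adjusted p = 0.00406). In neither pair do the 2 genes share an exonic base. The call of E330011O21Rik was lost without cold mouse 11 (adjusted p = 0.0774) or control mouse 9 (0.0993). It was also lost by DESeq2 (0.172), on flow cell 1 alone, in the 4 libraries and with the muscle covariate. The call of D330023K18Rik was lost without cold mouse 4 (0.0949), cold mouse 15 (0.206), control mouse 2 (0.0589), control mouse 9 (0.158) or control mouse 14 (0.0919). It was also lost by DESeq2 (0.253), at a minimum of 15 reads, on either flow cell alone, in the 4 libraries and with the muscle covariate.

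Where a partner shares exons on the other strand and the use of strand in counting is unknown, reads of the 2 genes cannot be told apart. A530020G20Rik, for example, shares 349 nt with Slc44a3. Of the 14 bidirectional promoter lncRNAs with a tested partner, the partner was called in 3 (19.7% of all tested genes were called). Of all 15 such lncRNAs, 6 were called, all lower.

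**Figure D4:**
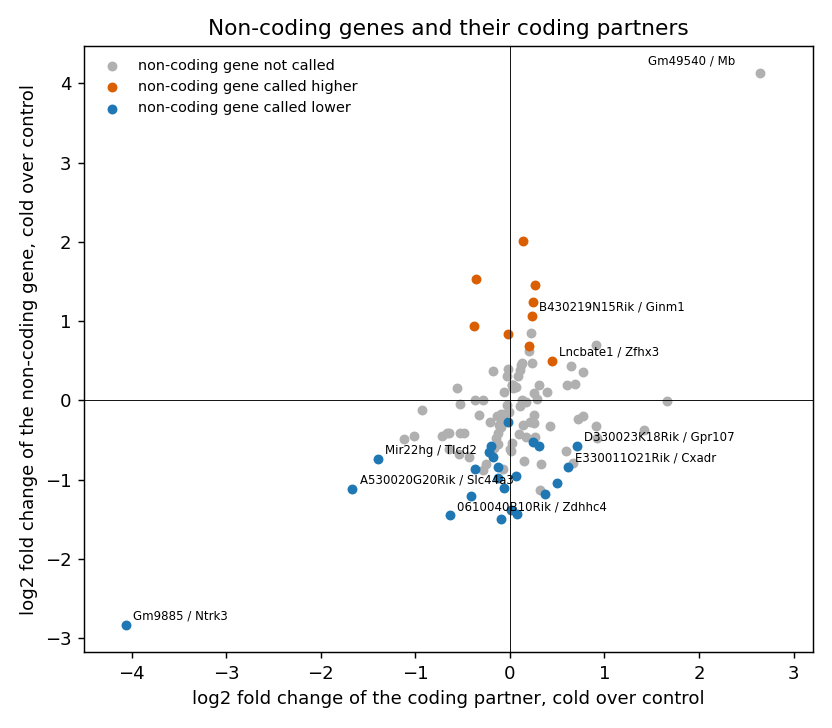
Log2 fold change, cold over control, of 115 non-coding genes (y axis) against that of their coding partner (x axis), coloured by the call of the non-coding gene. Pairs in which both genes were called are named, as is Gm49540 with Mb at upper right, which was not called; most called non-coding genes lie near 0 on the x axis.

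Coding genes that flank or overlap the non-coding genes were counted by call. Of 37 tested coding neighbours of 16 raised non-coding genes, 7 were higher and 4 lower (29.7%), and of 54 tested neighbours of 32 lowered ones, 4 were higher and 5 lower (16.7%). Beside 136 non-coding genes that were not called, 23 of 252 neighbours were higher and 27 lower (19.8%, against 19.7% of all tested genes).

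Gm49540, antisense to the myoglobin gene Mb, had the highest fold change of the 211 and was not called; it too falls outside the rule for named genes. It had 3.34, 6.39 and 21.4 CPM in cold mice, against 0.571, 0 and 0.922 CPM in control mice (log2 fold change 4.13 ± 1.27 SE, adjusted p = 0.0841). Most of its reads came from cold mouse 15. Mb had 25.2, 69.8 and 224 CPM in cold mice, against 4.59, 18.1 and 25.3 CPM in control mice (adjusted p = 0.217), and skeletal muscle markers summed to 250, 1311 and 3360 CPM in the same cold mice, against 86.1, 368 and 598 CPM in the control mice. The part of muscle RNA in the level of Gm49540 was not tested.

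RefSeq promoter windows, 250 bases before the start to 50 after, were found for 114 of the 211 genes, among them 8 of the raised and 21 of the lowered genes. The palindrome TGACGTCA was present in 6 of the 114 (5.26%, against 1.79% of all 32851 windows), and its core TGACG, which the palindrome also contains, in 39 (34.2%, against 20.8%). By call, TGACG was present in 3 of the 8 raised and 7 of the 21 lowered genes. TATAAA was present in 19 of the 114 (16.7%, against 13.6%). The estrogen-related receptor letters TCAAGGTCA were found in 0 of the 114 (0.423% of all windows). Besides Gm16062, the only called gene with the palindrome was 1500026H17Rik, a bidirectional promoter lncRNA 86 nt from Scyl2 that was lower in the cold. It had 9.05, 4.42 and 5.77 CPM in cold mice, against 11.5, 11.6 and 12.4 CPM in control mice (adjusted p = 0.0372). The call was lost at an adjusted p of 0.0625 to 0.175 without cold mouse 11, cold mouse 15 or any control mouse. DESeq2 (0.243), flow cell 1 alone, the 4 libraries and the muscle covariate also ended the call of 1500026H17Rik. Its window (RefSeq, GRCm38.p6, chr10:89686113-89686412, plus strand) is printed to set beside that of Gm16062: the palindrome, in capitals with the further TGACG match, lies before the start, where that of Gm16062 begins at the second base of the transcript.
1500026H17Rik promoter: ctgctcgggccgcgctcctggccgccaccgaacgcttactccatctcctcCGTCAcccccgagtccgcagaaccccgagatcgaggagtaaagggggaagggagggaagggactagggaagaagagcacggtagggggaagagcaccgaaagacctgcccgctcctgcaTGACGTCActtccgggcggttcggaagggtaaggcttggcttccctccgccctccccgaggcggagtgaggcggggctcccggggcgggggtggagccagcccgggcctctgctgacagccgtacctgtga

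The use of alternative transcripts was tested in 26 of the 211 genes, those with at least 2 transcripts of 60 reads or more. By edgeR's diffSpliceDGE with Simes p-values, 0 of the 26 were called (5 of 2495 genes in all, 0.2%), and only Gm17494 had an unadjusted p under 0.05 (0.022).

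Structure was compared only as a description. The most-read transcript had a median length of 1916 nt in the 18 raised, 1266 nt in the 36 lowered and 1832 nt in the 157 other genes, with a single exon in 4, 6 and 39 of them. Median read sums over the 6 mice were 261.5, 136 and 105. Under 30 reads in 1 of the groups were held by 44 of the 211, and for these a 2-fold difference rests on a few reads per mouse.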

How the data were processed

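Direct cDNA libraries of brown fat from 3 cold and 3 control mice were analysed. The authors' deposited tables hold raw read counts per annotated transcript, 1 table per library and flow cell. Reads were mapped with minimap2 on GRCm38, per the submitters' processing notes. Not given in the sources used here: the counter, annotation release, filters and use of strand. Transcripts were matched to GENCODE M21 (172 unmatched, 0.0836% of reads, left out), and counts were summed over flow cells and transcripts.

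Genes with at least 60 reads were tested with edgeR 4.0.16 in R 4.3.3 (TMM, robust glmQLFit, glmQLFTest, no covariate, Benjamini-Hochberg, called at 0.05). The scripts were tested on simulated counts. CPM use TMM library sizes, and 3 reads equal 1.34 to 1.81 CPM. Alternatives changed the filter, normalization, tool (DESeq2 1.42.0), flow cell, libraries and a muscle covariate. Shared sequence was found with minimap2 2.31.

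The genes and lists were chosen with earlier results of these data known. Named were fixed landmark RNAs, called genes without overlap between the groups (the 10 largest increases and 10 largest decreases), the 10 with the highest CPM, and all snoRNA hosts. Lncbate1, Gm49540, the pairs of coding partners, other microRNA hosts and 1500026H17Rik lie outside this rule and were chosen after their values were seen.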

Additional observations from a re-analysis of the deposited data

How the results depend on the processing

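Of 743 alternative values for the 56 named genes, 671 kept their direction and side of the threshold, 45 lost the call, 7 gained it and 20 changed sign. The 20 belong to 7 genes that were not called. For Neat1 the log2 fold change was -0.042 on flow cell 2 alone, -0.043 in 4 libraries without control mouse 2 and cold mouse 15, -0.0079 with the muscle covariate and -0.034 to 0.10 with any mouse left out. For Meg3 it was 3.31e-05 at a minimum of 15 reads, 0.0011 with RLE size factors, 0.15 on flow cell 2 alone, 0.055 in the 4 libraries, 0.013 with the muscle covariate and -0.11 to 0.078 with any mouse left out. It was 0.092 for Gm26631 on flow cell 2 alone, -0.041 for 1110038B12Rik on flow cell 1 alone, and 0.0088 and 0.066 for Epb41l4aos in the 4 libraries and with the muscle covariate. With any mouse left out it was -0.010 to 0.24 for Gas5, -0.097 to 0.36 for Snhg5 and -0.32 to 0.038 for Epb41l4aos. Of the 54 called genes, 22 stayed called whichever mouse was left out, 24 lost the call at least once, and 8 lost none but were not tested in at least 1 fit, with under 60 reads left. Under all 15 alternatives 12 were called, and 7 more under each that gave a value. The 1692 calls over all genes became 900 with DESeq2, 863 on flow cell 2 alone, 1124 in the 4 libraries, and 1312 to 1416 with any mouse left out. The 36 lowered genes became 15, 9 and 15 under the first 3 of these, 20 with the muscle covariate, 17 among genes that share no exonic base (92 genes by construction), and 19 to 25 with any mouse left out. The 18 raised genes became 7 on flow cell 2 alone, 7 among genes that share no exonic base, and 14 to 16 with any mouse left out. The 4 snoRNA host calls became 0 with DESeq2, 0 on flow cell 2 alone, 0 in the 4 libraries, 0 with the muscle covariate and 0 to 4 with any mouse left out. Flow cell 2 alone and the 4 libraries hold fewer reads or mice; the cause of the other losses was not tested. DESeq2 called 28 of the 211 genes, 26 of them among the 54. Transcript usage had 0 calls with any mouse left out. No paired analysis was possible because the mouse numbers differ between the groups.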
